A study of Mus musculus with 45 samples.

Results

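Chromatin accessibility at 6 h of SOX2 depletion was compared with that of cells that still had SOX2, in 4 ATACseq libraries of mouse embryonic stem cells (mESC): 2 of SOX2-FKBP cells labelled NT and 2 of the same line after 6 h of 500 nM dTAG-13. They are 4 of the 45 samples of the series and were chosen by their labels alone. SOX2-FKBP cells derive from the E14 line and carry the FKBP F36V sequence fused to the C-terminal end of SOX2 at its own gene, and dTAG-13 directs the tagged protein to the proteasome. NT stands for not treated: the series' design text calls these cells untreated and its treatment protocol gives them DMSO, added together with the last dTAG-13 dose of the time course. Both groups therefore carry the tagged Sox2 allele and grew in the same serum-free medium with LIF, a MEK inhibitor and a GSK3 inhibitor. The study's methods speak of duplicates and of a further SOX2 clone, and the labels do not say whether the 2 replicates are cultures of 1 clone. The p-values of the 6 h test therefore measure the spread between replicate libraries, pooled over the 12 SOX2-FKBP libraries of the time course.

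The count table holds 31 of the samples. The NT libraries hold 10531404 and 6479369 fragments in peaks and the 6 h libraries 9850181 and 10887645, with 1.89% to 2.74% of them on the mitochondrial genome. The embryonic stem cell label was checked at promoters. All 7 pluripotency genes looked at (Pou5f1, Nanog, Zfp42, Esrrb, Tdgf1, Dppa5a, Utf1) had a promoter peak, at 111 to 758 normalized counts in NT cells, and 2 of 7 fibroblast genes, Col1a1 and Col3a1, had none. Promoters of trophectoderm, primitive endoderm and neural genes also held a peak (5 of 5 genes in each list, from 5.48 counts at Fabp7 to 252), as did 5 of the 7 fibroblast genes (7.61 to 88.4), so that promoter accessibility does not separate these cell types here. Summed over the stem cell genes the promoter level was 2484 and 2682 in the NT libraries and 2243 and 2125 at 6 h, for the 5 primitive endoderm genes 709 and 725 against 844 and 858, for the fibroblast genes 214 and 231 against 250 and 263, for the trophectoderm genes 486 and 562 against 525 and 554, and for the neural genes 710 and 748 against 687 and 722. With 1 promoter OCR read per gene, only that of Pax6 passed the test (log2 fold change -0.77, adjusted p = 0.00472). Some of these genes, Pax6 among them, have more than 1 promoter OCR. The part of other cells in the results was not tested.

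SOX2 is an HMG-box transcription factor that binds and bends DNA in its minor groove, also where the DNA is wrapped on a nucleosome, and is counted among the pioneer factors for that reason. In embryonic stem cells it often binds together with the POU factor OCT4 on a composite motif in which a SOX half-site is followed by an octamer half-site, mostly in enhancers of the pluripotency network. In ATACseq the Tn5 transposase inserts adapters into DNA that is not covered by nucleosomes, so the number of fragments over an open chromatin region (OCR) measures how accessible it is.

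The regions with the largest losses are shown first, as the summit of each OCR and 100 bases on either side in mm10, with capitals for the SOX-POU composite pattern TTNTNATGC and the SOX pattern CATTGT on either strand. Each is named after the nearest protein-coding gene, and all are read on the plus strand.
Ncr1, chr7:4313195-4313395: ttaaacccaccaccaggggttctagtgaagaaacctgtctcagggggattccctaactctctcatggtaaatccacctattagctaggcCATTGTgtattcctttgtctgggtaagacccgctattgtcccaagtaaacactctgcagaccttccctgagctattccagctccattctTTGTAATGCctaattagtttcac
1700015G11Rik, chr7:52911386-52911586: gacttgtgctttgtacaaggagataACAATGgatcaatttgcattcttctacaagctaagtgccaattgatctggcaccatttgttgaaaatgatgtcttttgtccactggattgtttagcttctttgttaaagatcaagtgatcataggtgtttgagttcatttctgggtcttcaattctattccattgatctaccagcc
Nlrp4f, chr13:65174161-65174361: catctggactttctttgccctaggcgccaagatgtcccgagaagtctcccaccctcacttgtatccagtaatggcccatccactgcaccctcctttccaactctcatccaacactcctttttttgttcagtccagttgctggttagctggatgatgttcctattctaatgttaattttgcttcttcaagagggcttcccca
Vmn1r214, chr13:23024883-23025083: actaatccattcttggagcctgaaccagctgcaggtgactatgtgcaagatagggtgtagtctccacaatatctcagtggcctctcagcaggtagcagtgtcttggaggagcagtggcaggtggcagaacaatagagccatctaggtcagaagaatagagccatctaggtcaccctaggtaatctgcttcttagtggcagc
The first of them held 1 match to each pattern, the second 1 match to the SOX pattern, and the other 2 held neither. For comparison, these are the 2 largest gains away from promoters, neither of which held a match.
Rap1gap2, chr11:74462453-74462653: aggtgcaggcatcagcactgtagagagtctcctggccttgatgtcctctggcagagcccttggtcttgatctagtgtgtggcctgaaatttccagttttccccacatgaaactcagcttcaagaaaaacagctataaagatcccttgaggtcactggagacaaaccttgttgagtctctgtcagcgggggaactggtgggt
Tlr5, chr1:182908495-182908695: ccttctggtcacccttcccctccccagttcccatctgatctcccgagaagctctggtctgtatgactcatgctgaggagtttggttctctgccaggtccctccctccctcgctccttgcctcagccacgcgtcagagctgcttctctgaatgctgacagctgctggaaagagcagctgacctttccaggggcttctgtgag
The largest promoter loss, at Defb1, held 1 composite match, and the largest promoter gain, at Mb, held none.
Defb1, chr8:21776060-21776260: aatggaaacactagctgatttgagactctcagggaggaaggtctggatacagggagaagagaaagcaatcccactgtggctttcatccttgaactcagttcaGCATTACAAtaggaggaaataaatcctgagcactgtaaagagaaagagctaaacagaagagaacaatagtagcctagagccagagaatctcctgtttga
Mb, chr15:77021688-77021888: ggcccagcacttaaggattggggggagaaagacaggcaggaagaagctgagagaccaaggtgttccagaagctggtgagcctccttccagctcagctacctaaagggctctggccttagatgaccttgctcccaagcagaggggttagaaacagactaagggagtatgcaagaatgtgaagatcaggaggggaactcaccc
Among the OCRs named below for the gene lists, these are the composite matches within the same window, each with 10 bases on either side and written in the direction of the motif. They were picked because they hold the motif, whatever their size of change.
Pou3f3, chr1:42058687-42058715 (plus strand): aggggggataTTGTCATGCaaactgtcac
Eomes, chr9:118406350-118406378 (minus strand): ttgtattgtaTTGTAATGCtaaattaggt
Lamc1, chr1:153216585-153216613 (plus strand): ctgctatgtaTTGTAATGCtaaattctgt
Gsc, chr12:104449273-104449301 (minus strand): agagcagctaTTGTCATGCattatctcag
Rps19, chr7:24879741-24879769 (plus strand): aatggaatgtTTGTTATGCtcctgtgctg

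Depletion of SOX2 closed many more OCRs than it opened. Of 160432 OCRs tested, 14892 (9.28%) were lost at 6 h, meaning an adjusted p under 0.05 in edgeR's quasi-likelihood test and a lower level, and 4271 (2.66%) were gained. Of the changed OCRs 77.7% were losses. The median log2 fold change of all OCRs tested was 0.04. The losses were also larger: their median log2 fold change was -1.40, with quartiles of -1.92 and -1.01, while the median gain was 0.94, with quartiles of 0.76 and 1.21. A lost OCR kept a median of 37.6% of its NT level and a gained OCR reached 194%.

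The size of the change differed widely among OCRs. Of the losses, 11297 reached a log2 fold change of -1, 3318 of -2 and 567 of -3, and 281 OCRs kept at most 10% of their NT level. Of the gains, 1833 reached 1, 70 reached 2 and 4 reached 3. Taken one at a time, the 6 h libraries gave a median change over the lost OCRs of -1.41 and -1.33 and over the gained OCRs of 0.97 and 0.87 (log2, with 1 added to each level), a description since the same libraries made the calls. NT and 6 h libraries did not overlap at 14884 of the lost OCRs and at all 4271 gained ones. Over all OCRs tested, the 6 h libraries lay wholly below the NT libraries at 24.8% and wholly above them at 26.7%, so that 2 libraries a group separate often without a call.

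The gained count depends on the design more than the lost count does. With the replicate number as a block, since same-numbered libraries deviate together, 18346 OCRs were lost and 8459 gained. A fit of the 4 libraries alone gave 17859 lost and 5767 gained. Without NT replicate 1 there were 1698 gained OCRs, without NT replicate 2 there were 1699, without 6 h replicate 1 there were 1529 and without 6 h replicate 2 there were 2683, while lost OCRs numbered 10361 to 11429. DESeq2's Wald test on the same libraries called 9323 lost and 929 gained OCRs, and all of them were among the edgeR calls of the same direction.

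**Figure D1:**
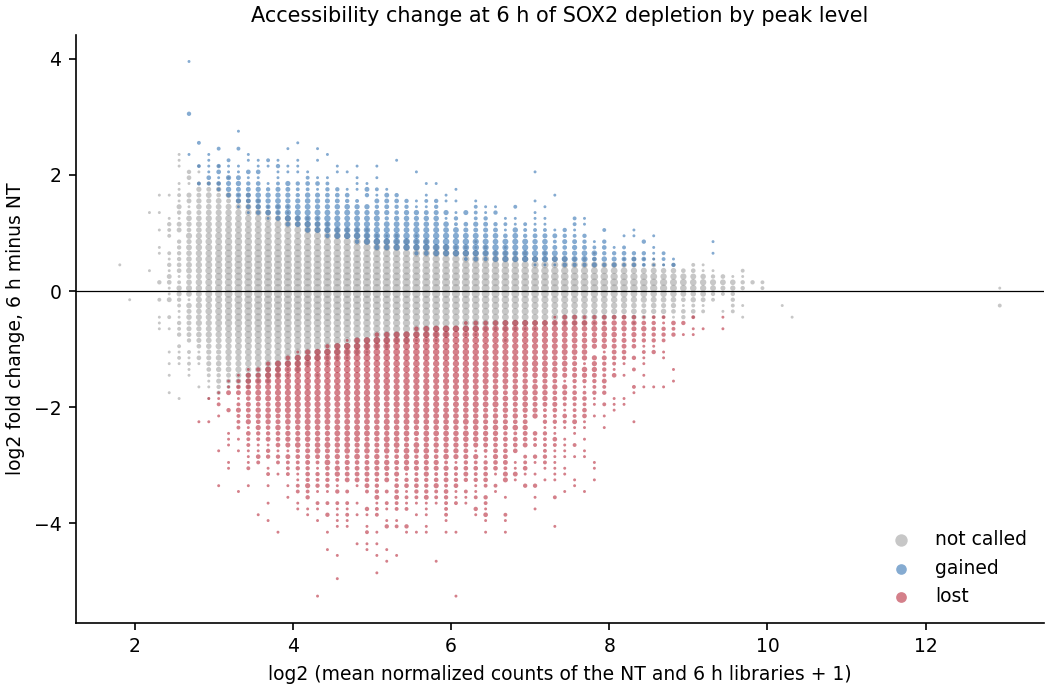
The log2 fold change at 6 h against NT is plotted over the log2 of the mean normalized count of each OCR (1 added), with lost OCRs in red, gained in blue and all others in gray, each point standing for 1 or more OCRs in a small bin and drawn larger where there are more. Losses reach below -5 and outnumber gains in all (14892 against 4271), though not among the OCRs of the lowest levels, where gains are the more frequent.

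Calls came from OCRs of all levels. Below a mean of 20 normalized counts 4.10% of 59284 OCRs were lost, and between 50 and 100 counts 15.0% of 25633 were. Above 200 counts the share was 6.81% of 7609 OCRs. Gains followed the same course, with 1.22%, 4.49% and 2.14%. Few counts limit the calls in the lowest group, so the shares there are not a measure of how many weak OCRs changed. In NT cells the lost OCRs had a median level of 62.8 normalized counts and the gained OCRs of 30.4, against 28.2 for all OCRs tested.

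Losses lay away from promoters. OCRs were classed by the distance from the summit to the nearest start of any GENCODE transcript. Within 500 bp of a start, the promoter class, 653 of 23003 OCRs were lost (2.84%), and the share was 8.74% of 69422 proximal OCRs (to 10 kb), 11.5% of 64461 distal OCRs (10 to 100 kb) and 21.2% of 3412 OCRs farther than 100 kb from any start. Promoters made up 14.3% of the OCRs tested and 4.38% of those lost. Gains were spread more evenly, at 1.91% of promoter, 2.69% of proximal, 2.91% of distal and 2.40% of far OCRs, and promoters made up 10.3% of the gained OCRs, or 6.30% with a GC offset in the fit. Promoter OCRs are the stronger ones, with a median of 93.2 normalized counts against 23.5 for distal OCRs. The part of level in these shares was not tested.

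The losses were also smaller at promoters. On the log2 scale the median loss was -1.08 at promoters, -1.35 in the proximal, -1.44 in the distal and -1.68 in the far class, and those that reached -1 were 56.5%, 73.5%, 78.5% and 86.1% of the losses of each class. The gained OCRs had medians of 0.79 at promoters, 0.94 proximal, 0.98 distal and 1.02 far. By annotation at the summit, 12.3% of intergenic and 8.69% of intronic OCRs were lost, 2.67% of those in untranslated regions and 1.96% of those in coding exons. Intergenic sequence held 49.9% of all losses and introns 45.5%, while introns held 51.6% of the gains.

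**Figure D2:**
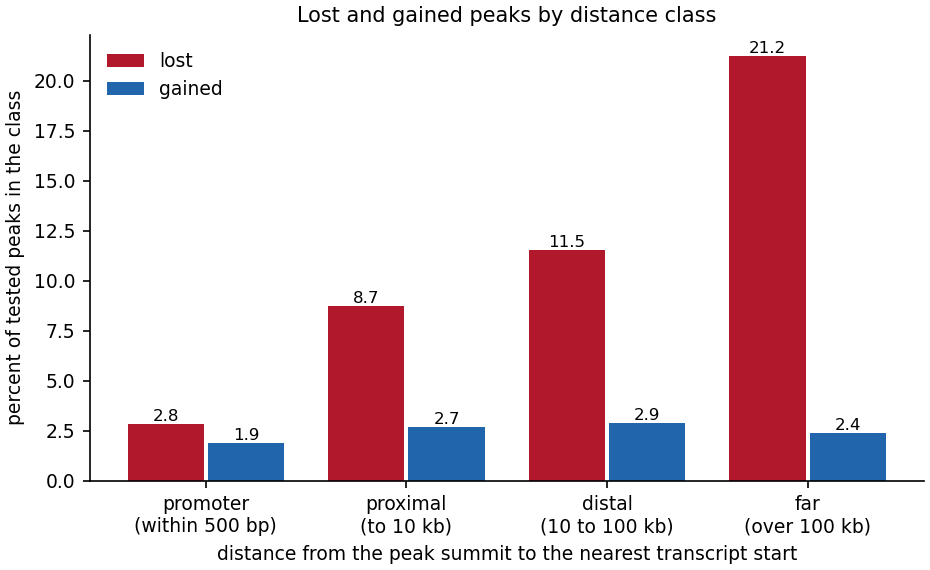
Bars give the percent of tested OCRs in each distance class that were lost (red) or gained (blue) at 6 h. The lost share rises from 2.84% at promoters to 21.2% in the class beyond 100 kb, while the gained share stays between 1.91% and 2.91%.

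The 10 largest losses away from promoters nearly closed. They were taken as the largest log2 fold changes among lost OCRs with at least 50 normalized counts in NT cells, 1 per nearest gene. The rule also required that NT and 6 h libraries do not overlap, so their size and the separation of the groups are a description. The largest was an intergenic OCR at chr7:4312813-4313964, 24429 bp upstream of Ncr1, a receptor of natural killer cells. It held 129 and 133 normalized counts in the NT libraries and 2.76 and 3.94 at 6 h, which is 2.55% of its NT level (log2 fold change -5.22 with a standard error of 0.36, adjusted p = 7.32e-13). Both treated libraries were at the level of a few counts and far below both NT libraries.

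The next 3 were as nearly closed. The OCR at chr7:52911222-52911689 is 895758 bp from the nearest coding start, that of 1700015G11Rik, and fell from 66.0 and 62.3 to 2.76 and 1.58 normalized counts (log2 fold change -4.84). At chr13:65174097-65174460, 7370 bp downstream of the start of Nlrp4f, an NLR family gene of the oocyte, it fell from 72.9 and 62.3 to 2.76 and 2.36 (-4.68). At chr13:23024378-23025381, 5435 bp upstream of Vmn1r214, a vomeronasal receptor gene, it fell from 114 and 103 to 4.59 and 3.94 (-4.65). Nlrp and vomeronasal receptor genes are multigene families whose copies resemble each other, and alignments with a mapping quality under 10 had been removed by the authors.

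The other 6 showed the same pattern. The log2 fold change was -4.59 at an intronic OCR 9687 bp upstream of the start of Zbtb41, a zinc finger gene, and -4.51 at one 67462 bp downstream of that of 1700028P14Rik. Within Cdh13, the gene of an atypical cadherin, the OCR at chr8:118481994-118482774 held 69.5 and 68.0 normalized counts in NT cells and 2.76 and 3.15 at 6 h (-4.48). The OCR 213465 bp downstream of the start of Nr2f2, an orphan nuclear receptor of mesoderm and neural crest, held 68.6 and 46.7 against 2.76 and 2.36 (-4.47). The changes near Lrrc69 and Ctnnd2, the gene of neuronal delta-catenin, were -4.38 and -4.35. At the Ctnnd2 OCR the first 6 h library had 0 counts and the second 5.52, the widest relative gap between treated libraries among the 10, against 53.8 and 75 in NT cells. In all 10 the treated libraries lay far below both NT libraries, which the rule favours.

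The 10 largest gains away from promoters, taken by the same rule, were smaller. Those near Rap1gap2, Tlr5 and Mn1 started from weak OCRs, while the one near Gm26897 started above the median NT level of all OCRs tested. The OCR at chr11:74462367-74462843, in an intron of Rap1gap2, a GTPase-activating protein for Rap1, rose from 13.9 and 12.7 to 76.2 and 55.2 normalized counts (log2 fold change 2.27 with a standard error of 0.35, adjusted p = 7.21e-06). The OCR at chr1:182908331-182909066, 46193 bp upstream of the flagellin receptor gene Tlr5, rose from 10.4 and 12.7 to 46.8 and 57.5 (2.2). In both the treated libraries lay well above the NT libraries and their spread was wider than that of the NT libraries.

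A pair of neighbouring gains lies on chromosome 5 between Mn1, a transcriptional coregulator, and Gm26897. At chr5:111522149-111523173 the level rose from 19.1 and 17 to 87.3 and 67.8 normalized counts (2.07), and at chr5:111617380-111618260 from 62.5 and 39.6 to 227 and 215 (2.06, adjusted p = 4.31e-10). The second was the strongest of the 10 at 6 h. The others rose by 1.93 near Rreb1, a zinc finger factor of RAS signalling, by 1.88 near Prag1, by 1.84 in Zfp362, by 1.80 in Ntn1, which encodes the guidance cue netrin-1, by 1.75 near Pllp and by 1.68 in St6galnac3 (log2 fold changes). All 10 stayed past the threshold without any one of the 4 libraries.

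**Figure D3:**
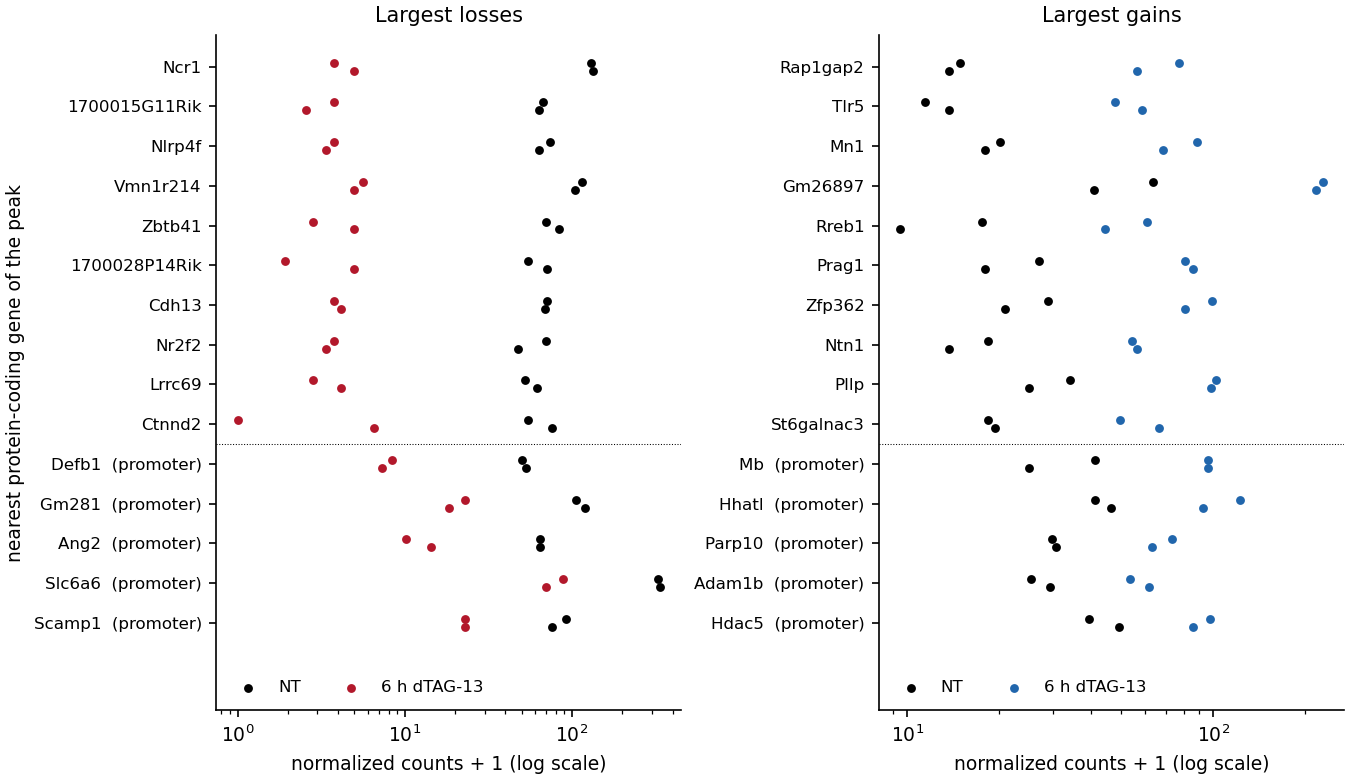
Normalized counts plus 1 on a log axis, 1 point per library, are plotted for the largest losses (left) and gains (right), with NT in black, 6 h in color, and OCRs away from promoters above the dotted line and promoters below it. The groups are apart in every row, which the rule required, and the gap is widest for the 10 losses away from promoters.

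Changes at promoters of protein-coding genes were fewer and smaller. Of the lost OCRs 1.65% had their summit within 500 bp of a coding transcript start, and 6.18% of the gained OCRs did. The largest promoter loss, at chr8:21775961-21776752, 439 bp upstream of the beta-defensin gene Defb1, went from 49.5 and 52.4 to 7.35 and 6.30 normalized counts (-2.88, standard error 0.35, adjusted p = 8.69e-08). The promoter OCR of Slc6a6, the taurine transporter, was the strongest of the 5, with 326 and 334 normalized counts in NT cells and 87.3 and 69.3 at 6 h (-2.08, adjusted p = 1.21e-10). The other 3 were at Gm281 (-2.50), at Ang2, a ribonuclease of the angiogenin family (-2.46), and at Scamp1, a secretory carrier membrane protein (-1.93).

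The largest promoter gain was at chr15:77021348-77022203, over the start of Mb, the myoglobin gene. It held 39.9 and 24.1 normalized counts in NT cells and 95.5 and 95.4 at 6 h (1.51, standard error 0.27, adjusted p = 7.55e-05). Next came the promoters of Hhatl (1.33), Parp10, a mono-ADP-ribosyltransferase (1.2), Adam1b (1.13) and Hdac5, a class IIa histone deacetylase (1.1). The Parp10 and Adam1b calls were lost without NT replicate 1 (adjusted p = 0.0600 and 0.0756). Across the 5 genes the NT libraries lay between 24.1 and 48.1 normalized counts and the 6 h libraries between 52.4 and 121.

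Lost OCRs differed from gained ones in sequence. Their median GC content was 46.7%, against 51.3% for gained and 50% for all OCRs tested, and their median width was 896 bp against 797 and 711 bp. Repeats, which the reference marks in lower case, took up more than 50% of the summit window in 24.0% of lost OCRs, against 13.1% of all OCRs tested and 4.92% of the gained. The share was highest among the largest losses, at 42.0% of the 567 OCRs with a log2 fold change of -3 or below, and fell to 35.5%, 22.8% and 14.9% in the steps from -3 to -2, from -2 to -1 and above -1. Outside promoters, 17.2% of 20345 OCRs in repeats and 9.17% of 116952 others were lost, while 0.993% and 3.10% were gained. Repeat copies resemble each other, and how many of their fragments passed the mapping filter is not known here. Of the 4 losses printed above, those near Ncr1, 1700015G11Rik and Vmn1r214 lie in repeats for 86.6%, 94.5% and 88.1% of the window, and the one near Nlrp4f for 0%.

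By chromosome, the lost share ran from 7.57% on chromosome 19 to 11.2% on chromosome 1 among the autosomes and was 14.7% of 2606 OCRs on the X chromosome. The X chromosome also had the lowest share of gains, 0.767%, where the autosomes had 2.15% to 3.21%. These shares were not tested between chromosomes.

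SOX and POU motifs were frequent in lost OCRs. Motifs were matched as fixed letters on both strands within 100 bp of the summit, outside promoters, where 14237 OCRs were lost and 3829 gained of 137295. The composite pattern TTNTNATGC was in 9.57% of the lost OCRs (95% Wilson interval 9.09 to 10.1, counting error only), in 1.44% of the gained (1.11 to 1.86) and in 2.69% of all tested. The SOX pattern CATTGT, which can overlap the first part of the composite, was in 23.0% of the lost, 5.04% of the gained and 10.7% of all tested OCRs. The octamer pattern ATGCNAAT was in 9.37%, 4.73% and 4.15%. The KLF pattern GGGNGTGG, in contrast, was in 14.7%, 12.9% and 13.6%, close to its share in all OCRs.

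Read the other way, 36.9% of 3688 OCRs with the composite were lost, 20.8% of 14118 with the SOX pattern but no composite, 17.5% of 4558 with the octamer pattern and neither of the others and 7.96% of the 114931 with none of the 3. Most lost OCRs, 9145, thus held none of these letters in the window. The composite was the more frequent the larger the loss. It was in 23.2% of OCRs with a log2 fold change of -3 or below, in 15.2% from -3 to -2, in 8.44% from -2 to -1 and in 5.32% above -1, and the SOX pattern went from 33.8% to 18.2%. The KLF pattern went the other way, from 6.43% among the largest losses to 17.7% among the smallest. Larger losses were also more often in repeats, as given above, and the part of repeats in these shares was not tested.

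**Figure D4:**
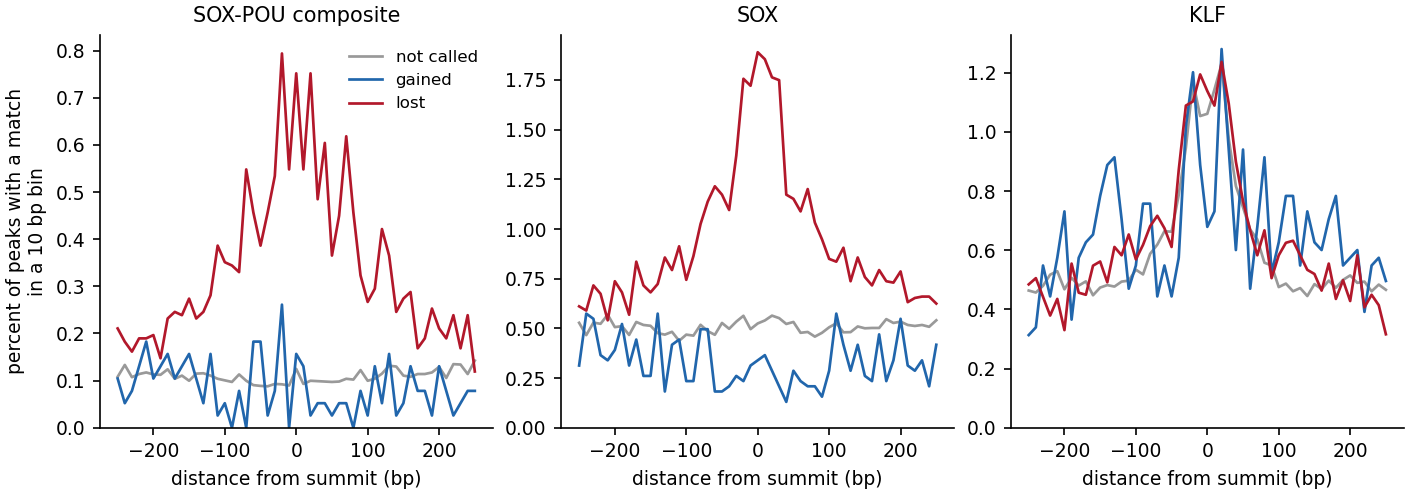
For 3 motifs, the percent of OCRs outside promoters with a match is plotted in 10 bp bins of distance from the summit, for lost (red), gained (blue) and other OCRs (gray). At the summit 0.752% of lost and 0.125% of uncalled OCRs hold the composite and 1.89% against 0.525% the SOX pattern, while the KLF curves of lost and uncalled OCRs run together, at 1.14% and 1.06%.

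Gained OCRs held other motifs more often. The ESRRB pattern CAAGGTCA was in 11.4% of the gained, 6.49% of the lost and 5.01% of all tested OCRs outside promoters. The AP-1 pattern TGANTCA was in 12.3% of the gained, 7.89% of the lost and 7.57% of all, the TFAP2 pattern GCCNNNGGC in 10.7%, 6.10% and 7.62%, the TEAD pattern CATTCCA in 6.45%, 4.63% and 4.62%, and the ETS pattern CCGGAAG in 3.63%, 1.44% and 2.30%. The CTCF pattern AGNGGGCNC was rare in both, at 3.16% of gained and 1.89% of lost OCRs against 5.91% of all. The pattern AGATAA, which factors of the GATA family bind, was in 6.03% of gained, 9.01% of lost and 6.79% of all OCRs. The remaining patterns, in the same order of shares, were TCF (CTTTGAT, 4.96%, 5.53% and 4.07%), ZIC (CCTGCTG, 12.6%, 16.9% and 13.2%), OTX (GGATTA, 5.77%, 7.34% and 6.08%) and STAT (TTCCNGGAA, 1.49%, 1.12% and 1.01%). A match is not a bound site, and GC content, which differed between lost and gained OCRs, also sets how often such letters occur.

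Lost OCRs were spread over many genes. Of 18698 coding genes that were nearest to a tested OCR, 6955 were nearest to a lost one, 2809 to a gained one and 1409 to both, and 92 to at least 10 lost OCRs. Most losses were near Tbl1xr1, a subunit of the NCoR corepressor complex, with 27 lost and 3 gained of 107 OCRs. Pik3c3, the class III phosphoinositide kinase, had 20 lost of 39, Auts2 20 of 95, Dpp6 19 of 48 and Magi2 18 of 41, with 0 gains each. Most gains were near Gm26897 (13 of 64, with 1 lost), Mbnl2, a splicing regulator (12 of 40), Agap1 (12 of 90, with 4 lost), Arhgef10l (11 of 59) and Msi2, an RNA-binding protein (10 of 76, with 5 lost). A gene with more tested OCRs can hold more calls, and the counts are not corrected for that.

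Pluripotency genes were followed through gene lists, in which an OCR belongs to its nearest coding gene. Of the 3 core factors, 12 of 106 OCRs were lost and 3 gained, 11.3% and 2.83%, close to the 9.28% and 2.66% of all OCRs. The lost OCR with the smallest p near Sox2, at chr3:34786697-34787725, 136905 bp downstream of its start, held 186 and 157 normalized counts in NT cells and 56.9 and 43.3 at 6 h (log2 fold change -1.79, standard error 0.20, adjusted p = 1.62e-08). The OCR 15469 bp upstream of the start of Pou5f1, which encodes OCT4, held 188 and 178 against 76.2 and 66.2 (-1.37, adjusted p = 8.45e-07). Near Nanog the level went from 154 and 154 to 108 and 88.3 (-0.65, adjusted p = 0.00906), a call that was lost without NT replicate 1, NT replicate 2 or 6 h replicate 2 (adjusted p = 0.0569 to 0.178). The promoter OCRs read for Pou5f1, 1 of its 2, and for Nanog did not pass the test (-0.31 and -0.30, adjusted p = 0.147 and 0.251).

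Regulators of naive pluripotency had 77 of 558 OCRs lost (13.8%) and 10 gained (1.79%), where 9.28% and 2.66% of all OCRs were. The Wilson interval of the lost share, 11.2 to 16.9, holds counting error only and takes OCRs of the same gene as independent, so it is not a test. Losses were found near 18 of 19 genes and the median over the list was -0.14 on the log2 scale. The Klf genes, zinc finger factors that sustain self-renewal, held the 3 smallest p-values of the list. Near Klf5, the OCR at chr14:99509866-99511071, 211109 bp downstream of its start, held 259 and 270 normalized counts in NT cells and 29.4 and 41.0 at 6 h (-2.89, standard error 0.21, adjusted p = 1.59e-12). The OCR 2700 bp upstream of Klf2 fell from 232 and 246 to 51.4 and 35.5 (-2.47), and 8 of the 13 OCRs of Klf2 were lost. The OCR 67402 bp downstream of the start of Klf4 fell from 352 and 370 to 112 and 107 (-1.72). Of the nuclear receptor genes, Nr5a2 had 8 lost OCRs of 63 and Esrrb 5 of 60 with 2 gained.

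Genes known as SOX2-OCT4 targets had 41 of 298 OCRs lost (13.8%) and 6 gained (2.01%), where 9.28% and 2.66% of all OCRs were. Near Sall1, a zinc finger repressor, the level went from 328 and 348 to 77.2 and 82.7 normalized counts (-2.07), near Lefty1, a secreted NODAL inhibitor, from 303 and 316 to 74.4 and 71.7 (-2.08), and near Spp1, which encodes osteopontin, from 318 and 355 to 98.3 and 91.4 (-1.82). Counted within 50 kb of the genes' starts in place of the nearest gene, the lost share of this list was 9.68%, near that of all OCRs. In the MYC and LIN28 list 30 of 193 OCRs were lost (15.5%, and 11.8% within 50 kb, against 9.28% of all OCRs). Of these, 16 were among the 61 of Mycn, where the level at chr12:12926809-12928008 went from 141 and 173 to 13.8 and 22.1 (-3.08, adjusted p = 7.04e-11). The OCRs named near Myc and Mycl fell by 1.87 and 1.42 on the log2 scale.

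SOX family genes had 58 of 404 OCRs lost (14.4%) and 5 gained (1.24%), where 9.28% and 2.66% of all OCRs were. Within 50 kb of their starts 9.96% were lost, near the share of all OCRs. Losses were found near 11 of 18 genes, with 14 of 80 OCRs near Sox9, 11 of 45 near Sox5 and 7 of 22 near Sox13. The OCR in an intron 245021 bp upstream of a start of Sox5 held 158 and 205 normalized counts in NT cells and 19.3 and 17.3 at 6 h (-3.29), the one near Sox13 held 253 and 266 against 64.3 and 63.8 (-2.01), and the one near Sox9 55.6 and 87.8 against 8.27 and 5.52 (-3.33).

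Shares of lost OCRs near lineage genes are set beside the 9.28% lost and 2.66% gained of all OCRs. Neural progenitor genes had 28 of 176 lost (15.9%, and 9.09% within 50 kb), with OCRs near Zfp521 (-3.43), Pou3f3 (-2.66) and Meis1 (-2.45) first by p. Formative and primed epiblast genes had 31 of 298 lost (10.4%), close to that of all OCRs, as in the next 2 lists, with OCRs near Car12 (-3.22), Lef1 (-2.71) and Foxd3 (-2.12). Mesendoderm genes had 11 of 119 (9.24%), among them OCRs near Gsc (-2.37), T (-1.72) and Fgf8 (-0.88). The T call was lost without NT replicate 1 (adjusted p = 0.0707). Primitive endoderm genes had 26 of 265 lost (9.81%) and 11 gained (4.15%), with losses near Dab2 (-2.27), Lamc1 (-1.65) and Sox17 (-1.52).

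For trophectoderm, FGF and BMP genes the lost shares were near the 9.28% of all OCRs and the gained shares above the 2.66%. Of the trophectoderm OCRs 31 of 312 were lost (9.94%) and 19 gained (6.09%). Lost ones included OCRs near Eomes (304 and 286 against 34.0 and 56.7 normalized counts, -2.68), Gata3 (-2.49) and Tfap2c (-1.58), all transcription factors of early trophoblast, and 4 of the 9 OCRs of Krt18, a keratin gene of simple epithelia, were gained. Of the FGF and ERK OCRs 40 of 403 were lost (9.93%) and 34 gained (8.44%), the highest gained share of the 21 lists. Its lost OCRs included those near the feedback inhibitors Dusp4 (-2.31), Spred2 (-1.93) and Dusp6 (-2.17), and its gains were spread over 12 of 16 genes, with 8 near Spred2, 5 near Fgfr1 and 5 near Phlda1. BMP and ID genes had 28 of 250 lost (11.2%) and 14 gained (5.60%). Here the OCRs near Bambi and Id4 were lost (-2.13 and -2.25) and one 213570 bp upstream of Id2 was gained, from 38.2 and 41.1 to 109 and 95.4 normalized counts (1.37).

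The other signalling lists had lost shares of 5.49% to 11.1%, where all OCRs had 9.28% lost and 2.66% gained, with WNT, NODAL and Hippo genes below it and LIF genes near it. WNT and TCF genes had 26 of 387 OCRs lost (6.72%) and 18 gained (4.65%), and the 2 strongest losses of this list were large. The OCR 94533 bp upstream of Ccnd1, the cyclin D1 gene, held 247 and 265 normalized counts in NT cells and 25.7 and 26 at 6 h (-3.30, adjusted p = 1.86e-13), and the OCR 2699 bp upstream of Notum, a secreted WNT inhibitor, 168 and 217 against 12.9 and 18.1 (-3.59). LIF and STAT3 genes had 21 of 190 lost (11.1%), with OCRs near the receptor genes Lifr (-1.80) and Il6st (-1.74) and near Pim3 (-2.59). NODAL pathway genes had 15 of 273 lost (5.49%), near Smad2 (-2.49) and Smad7 (-2.78) besides Lefty1. Hippo and YAP genes had 14 of 239 (5.86%), near Ccn2 (-1.62), Wwtr1 (-1.38) and Nf2 (-0.97).

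The remaining lists hold chromatin regulators, AP-1 factors and ribosomal proteins, and their lost shares were near or below the 9.28% of all OCRs, of which 2.66% were gained. Polycomb genes had 28 of 275 OCRs lost (10.2%), near Epop (-2.43), Mtf2 (-2.11) and Eed (-2.36). BAF complex genes had 12 of 194 (6.19%), near Smarcc1 (-1.60), Actl6a (-1.44) and Arid1b (-1.75), and DNA methylation genes 8 of 146 (5.48%) with 0 gained, near Tet2 (-1.36), Dnmt3b (-1.33) and Tet3 (-0.76). AP-1 genes had 4 of 104 lost (3.85%) and 6 gained (5.77%), and within 50 kb of their starts 2.09% lost and 3.66% gained. Near the AP-1 genes Atf3 and Fos the OCRs first by p were gained (0.73 and 0.61) and near Fosl2 one was lost (-1.09). Ribosomal protein genes had 10 of 189 lost (5.29%), near Rps27a (-2.57), Rps24 (-2.28) and Rps19 (-1.99). The calls at Fos, Atf3, Fosl2 and Tet3 were lost in at least 1 fit without a library: at Atf3 without 6 h replicate 1 (adjusted p = 0.0536), at Fosl2 without 6 h replicate 2 (0.0664), at Fos without NT replicate 2 or either 6 h library (0.0544 to 0.138) and at Tet3 without either NT library or 6 h replicate 2 (0.0584 to 0.252).

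Between 2 h and 6 h of depletion few OCRs changed enough to be called. In the same fit, 12 OCRs (0.00748%) were lower at 6 h than at 2 h and 1 (0.000623%) was higher. At an unadjusted p under 0.05 there were 6032 lower and 4674 higher, DESeq2 called 3 and 0, and the fit with the replicate block called 551 lower and 180 higher. Without 2 h replicate 1 there were 5 lower and 0 higher, and without 2 h replicate 2, 6 h replicate 1 or 6 h replicate 2 there were 0 and 0. Among the 12 was the OCR near Myc, at chr15:62012293-62013085, whose mean level went from 125 normalized counts in NT cells over 89.7 and 34.2 to 7.69 at 2, 6 and 24 h (6 h minus 2 h -1.39, adjusted p = 0.00782). The Ccnd1 OCR went from 256 to 67.1, 25.9 and 18.7 (-1.38, adjusted p = 0.0229). The OCR that was higher at 6 h lies in an intron of Bcl11b, a zinc finger factor of T cell and neural development, and had 48.8, 52.2, 118 and 173 normalized counts (1.18, adjusted p = 0.0229). The others were nearest to Xkr4, Fat2, Cxcl12, Loxl4, Mmp16, Adgrd1, Rybp, Nrp2, Wdr11 and Tmem132b.

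Among the OCRs named first, the losses given here had mostly fallen by 2 h. The gains near Tlr5 and Rreb1 had higher means at 6 h than at 2 h, but neither passed the test of 6 h against 2 h. Other gains, such as those near Gm26897 and Rap1gap2, were already well above both NT libraries at 2 h. Mean levels are given for 2, 6 and 24 h. The Ncr1 OCR had 11, 3.35 and 4.28 normalized counts, the Cdh13 OCR at 3.96, 2.95 and 4.30, and the Defb1 promoter at 8.22, 6.83 and 2.86. Of the gains named for their size, 5 rose further from 6 h to 24 h. The Rap1gap2 OCR was at 41.7, 65.7 and 136 normalized counts, the Tlr5 OCR at 22.9, 52.2 and 122, the Zfp362 OCR at 64.5, 88.9 and 221, the Pllp OCR at 74.5, 99.4 and 170 and the Hhatl promoter at 62.1, 106 and 252. The rises from 6 h to 24 h passed the test at these 5 (adjusted p = 0.0124, 0.000529, 0.000112, 0.0174 and 0.000139). The other 10 gains named for their size did not pass it in either direction. Among them the Gm26897 OCR was at 155, 221 and 211 normalized counts, the Rreb1 OCR at 27, 51.5 and 50.9, the Ntn1 OCR at 41.5, 54.2 and 42.6 and the St6galnac3 OCR at 40.8, 57 and 46.4. These times are compared with the same NT libraries, so the values are set side by side without a test of their likeness.

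Last, the response was compared with that of OCT4-FKBP cells, which the labels give as V6.5 and not E14, so that the depleted factor and the parental line cannot be told apart. In a fit of 27 libraries of 3 lines, 11360 of 166430 OCRs (6.83%) were lower at 6 h of SOX2 depletion, and 7547 without SOX2-FKBP 6 h replicate 1. Of the same OCRs 13260 (7.97%) were lower after 6 h of OCT4 depletion. Both lists held 6405, which is 56.4% of the SOX2 list and 48.3% of the OCT4 list. NANOG depletion lowered 1797 OCRs (1.08%), of which 920 were in the SOX2 list. These are 8.10% of the SOX2 list and 51.2% of the much shorter NANOG list. The NANOG-FKBP 6 h libraries held 12437876, 3272168 and 4247580 fragments in peaks, with 13.2% mitochondrial in the second. The OCT4-FKBP 6 h libraries held 17071452 and 16201344. Depth thus differs between the lines, and its part in these counts was not tested. Each line has its own NT libraries. The OCRs lost after SOX2 depletion had a median log2 fold change of -1.72 in SOX2-FKBP, -1.16 in OCT4-FKBP and -0.19 in NANOG-FKBP cells, the first being a description since it chose them.

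The 2 responses differed at some OCRs. The test of the difference called 3135 OCRs (1.88%) at which the SOX2 change was lower than the OCT4 change and 1410 (0.847%) at which it was higher, and 6981 and 3788 with the replicate block. The second count was 619 without SOX2-FKBP NT replicate 1, 677 without its replicate 2, 652 and 669 without SOX2-FKBP 6 h replicate 1 or 2, 727 without OCT4-FKBP NT replicate 2 and 791 without OCT4-FKBP 6 h replicate 2. The first stayed between 2093 and 3238. Of the OCRs lost after SOX2 depletion, 2071 had a lower SOX2 than OCT4 change by this test, with medians of -1.93 after SOX2 and 0.31 after OCT4 depletion, which describe the set only, since both changes chose it. Outside promoters these held the composite pattern in 2.89%, the SOX pattern in 27.9% and the octamer pattern in 0.896% of cases. The 6405 OCRs lost in both lines held them in 17.1%, 23.5% and 15.1%, and the 1260 OCRs lost after OCT4 depletion with a higher SOX2 change in 5.74%, 7.88% and 32.4%, against 2.78%, 11.1% and 4.05% of all OCRs in this fit. The motifs were not used to choose these sets.

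**Figure D5:**
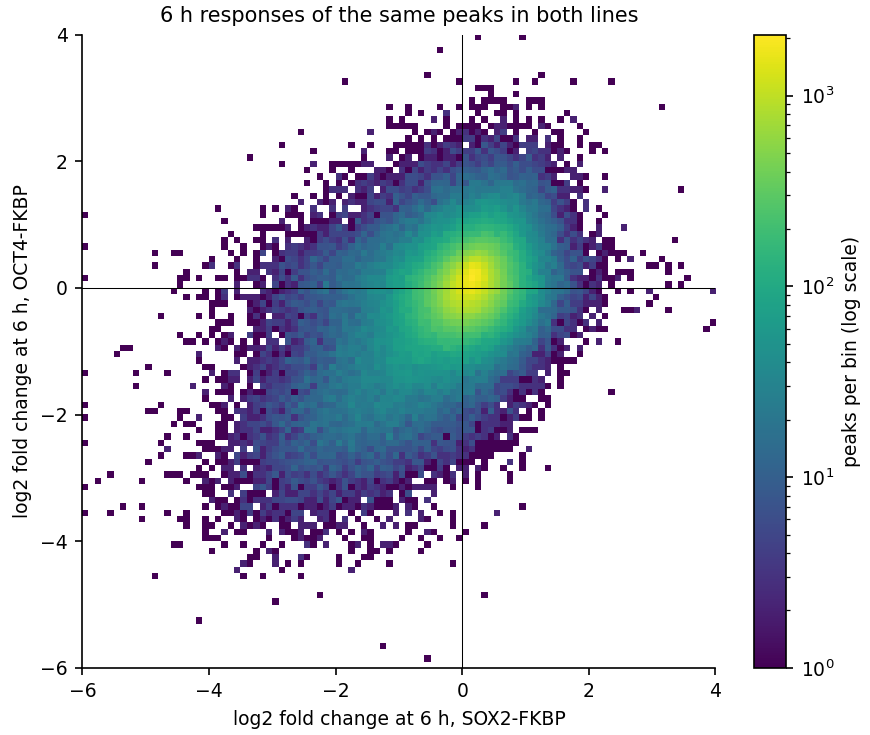
Each OCR's log2 fold change at 6 h in SOX2-FKBP cells (x axis) is plotted against that in OCT4-FKBP cells (y axis) as a 2-dimensional histogram with a log color scale, values beyond the axes being drawn at their edge. A group of OCRs extends to the lower left, lower after both depletions, and another to the left at OCT4 values near 0.

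Named OCRs fell into both groups. Of the 91 OCRs named here 22 differed between the lines by the test, 21 of them with the lower change after SOX2 depletion. Most named OCRs were chosen for their loss in the same SOX2-FKBP libraries, which favours that direction. The Ccnd1 OCR changed by -3.25 after SOX2 and 0.06 after OCT4 depletion, the Notum OCR by -3.55 and 0.08, the Sox5 OCR by -3.24 and -0.26 and the Pou5f1 OCR by -1.31 and 0.49. The Klf5 OCR, by contrast, changed by -2.85 and -2.37, the Mycn OCR by -3.04 and -3.47 and the Sox2 OCR by -1.73 and -1.81, differences that did not pass the test (adjusted p = 0.754, 0.866 and 0.988).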

How the data were processed

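ATACseq fragments in OCRs were compared between NT and 6 h libraries of SOX2-FKBP cells. The authors aligned reads to mm10 with BWA 0.7.17-r1188, filtered alignments on mapping quality (at least 10) with SAMtools 1.10, removed duplicates with Picard 2.12.0, ran MACS2 for peaks on all libraries merged, and counted the fragments over each peak. A shift of fragment ends is not given in the sources used here. The deposited values are whole-number counts without normalization. The deposited peak list gives a fold enrichment over local background (a ratio, pooled over libraries), used here only to describe OCRs. The other 14 samples of the series were not analysed here, and 0 columns of the count table lacked a sample.

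edgeR 4.0.16 in R 4.3.3 (TMM scaling, quasi-likelihood test, Benjamini-Hochberg, threshold 0.05) was fitted to the 12 SOX2-FKBP libraries after a filter that left 160432 peaks, each above 10 counts in over 2 libraries. For the 3 lines the fit held 27 libraries and 166430 peaks (above 10 counts in over 6 libraries). Normalized counts are counts divided by the effective library size, itself relative to the mean of the libraries. The standard error is the absolute log2 fold change divided by the square root of F, an approximation. Gene starts came from GENCODE vM21 and sequence from RefSeq's GRCm38.p6, the build mm10, and 0 of 184964 peaks ended past a chromosome. The code was tested on simulated data.

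Named OCRs are the 10 largest losses and gains over 500 bp from any start and the 5 at coding starts (at least 50 normalized counts in the higher group, no overlap between groups, 1 per gene). Up to 3 OCRs per gene list were added by p, at most 1 per gene. The 5 genes with most losses or gains were named too. The composite sites were chosen after the values were seen. The comparison and the 21 gene lists (289 of 293 entries matched) were chosen with earlier results of these data known. Same-numbered libraries deviated together (15 pairs of times, correlations of 0.117 to 0.508 over peaks with a mean of at least 50 counts, 0.083 to 0.235 over all peaks), and the replicate numbers were therefore taken to pair the samples. The paper's model held time alone, so the block is an alternative. The others were DESeq2 1.42.0, its size factors, total counts, other filters, the 4 libraries alone, GC offsets, leaving out each library, other promoter windows, whole-peak motifs and a 50 kb gene window.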

Additional observations from a re-analysis of the deposited data

Results flagged for a closer look

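The responses to SOX2 and OCT4 depletion at 6 h differed by a test of the difference itself at 3135 OCRs with the lower change after SOX2 depletion and at 1410 with the higher change after SOX2 depletion. Among the named OCRs, the difference (SOX2 change minus OCT4 change, log2) was -3.82 near Ncr1, -5.11 near Vmn1r214, -4.49 near Zbtb41 and -4.96 near Nr2f2, which are 4 of the 10 largest losses away from promoters. At the promoter of Gm281 it was -1.61. Near regulators of pluripotency and lineage it was -1.80 near Pou5f1, -1.32 near Sall1, -3.16 near Sox17 and -1.50 near Fgf8. Near genes of the signalling lists it was -1.14 near Smad2, -3.31 near Ccnd1, -3.64 near Notum, -1.64 near Bambi and -2.55 near Wwtr1. It was -1.67 near the AP-1 gene Fosl2. Near SOX family genes it was -2.98 near Sox5, -1.92 near Sox13 and -2.32 near Sox9. It was -1.58 near Smarcc1, -1.41 near Actl6a and -2.66 near Rps24. The OCR near Myc was the only one of the 22 with the larger loss after OCT4 depletion, 1.46. Adjusted p ranged from 4.24e-08 near Vmn1r214 to 0.0354 near Sall1. The fitted OCT4 change was above 0 at 12 of the 22 and passed the test at 2 of these 12, near Sox17 (1.69, adjusted p = 5.64e-05) and Wwtr1 (1.21, adjusted p = 0.00233). Most of these OCRs were chosen for their loss after SOX2 depletion in the same libraries, which favours the lower SOX2 change. All 22 stayed past the threshold with the replicate block, but that fit called more differences than the main one and is not a stricter check. The fits without 1 library were not looked at for these 22. The lines also differ in their parental cells, which cannot be told apart from the depleted factor here.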

How the results depend on the processing

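More OCRs were lost than gained under every alternative tried. DESeq2 gave 9323 lost and 929 gained OCRs, and leaving out 1 library left 1529 to 2683 gained. The replicate block, with pairs taken from the replicate numbers, gave 8459 gained OCRs, and 8835 with a GC offset. The lost share of changed OCRs was 77.7%, and 90.9% with DESeq2, 70.7% with total counts, which moved the median of all OCRs from 0.04 to 0.09 (log2), and 68.4% with the block.

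Promoters made up 4.05% of the lost OCRs with DESeq2, 3.99% without a filter, 4.98% with at least 10 counts in each library, 4.81% with 4 libraries only, 4.89% with the block, 5.75% with block and GC offset, 4.97% with the GC offset, 6.93% within 1000 bp, 1.65% at coding starts only and 3.74% to 4.23% without 1 library. For the gained OCRs the values were 7.86% with DESeq2, 13.2% with total counts, 11.8% with at least 10 counts in each library, 12.1% with 4 libraries only, 13.2% with the block, 7.86% with block and GC offset, 6.30% with the GC offset, 14.1% within 1000 bp, 6.18% at coding starts only and 7.06% to 10.5% without 1 library.

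From 2 h to 6 h the block gave 551 lower and 180 higher OCRs, total counts 28 lower, DESeq2 3 and 0, and fits without 1 library 0 to 5 lower and 0 higher. With at least 10 counts in each of the 27 libraries, 3391 OCRs were lower after SOX2 depletion, 1975 in both lines, and 926 and 515 had a lower or higher SOX2 change. The block gave 6981 and 3788 for the last pair. Without 1 library these 4 counts were 7547 to 12675, 4523 to 6099, 2093 to 3238 and 619 to 1329. Over the whole peak, the composite was in 22.4% of lost, 7.31% of gained and 8.91% of all OCRs tested outside promoters, the SOX pattern in 52.1% of lost and 31.2% of all, ESRRB in 21.6% of gained and 10.9% of all, and AP-1 in 31.4% of gained and 22% of all, so that each share was closer to that of all OCRs, as a ratio, than near the summit. Within 50 kb of a list gene's start, lost shares were 9.68% for SOX2-OCT4 targets (0.717% gained), 9.09% for neural, 6.64% for primitive endoderm, 3.09% for NODAL, 6.86% for FGF and ERK, 7.58% for BMP and ID and 9.96% for SOX family genes, 0.772% of BAF OCRs were gained, and AP-1 genes had 2.09% lost and 3.66% gained. The cause of these differences was not tested.

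Of the 91 named OCRs 86 to 89 stayed called without 1 library, and DESeq2 lost the Tet3 call (adjusted p = 0.0843). The replicate block, which called more OCRs, kept all 14892 lost and 4271 gained OCRs of the main fit and so every named one. Depth limits calls among OCRs under 20 normalized counts.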
